A study of Mus musculus with 8 samples.

Results

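Nudt21 loss was described in resting macrophages from the 4 samples of the series that had not been stimulated, out of 8 samples in all. Bone marrow-derived macrophages (BMDMs, macrophages grown from bone marrow cells with the growth factor M-CSF) came from Nudt21-cKO mice, which carry Nudt21 fl/fl with LysM-Cre, and from sex-matched littermates with LysM-Cre alone, here WT. All mice had the C57BL/6 background, and both groups carried the Cre, which was placed in the lysozyme M gene and acts in myeloid cells, where it removes exons 2 and 3 of a floxed Nudt21. Each group had 2 samples at 0 h (cKO samples 3 and 4, WT samples 1 and 2), and in each sample the cells of 2 mice were pooled. The ages of the mice behind these cultures are not given in the sources used here. The other 4 samples were the same 2 groups after IFNγ overnight and then LPS for 4 h, per the study's methods, and are called 4 h here. The stimulation is also named in the treatment label of the unstimulated samples, which were taken as resting from their titles. The comparison asks which functions of a macrophage differ when Nudt21 is missing and no stimulus has been given.

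Nudt21 is the subunit of cleavage factor Im (CFIm) that recognises UGUA elements in nascent transcripts, and it works in a complex with Cpsf6 or Cpsf7. CFIm helps to choose where a pre-mRNA is cut and polyadenylated, and in many cell types its loss moves cutting towards sites closer to the stop codon, which leaves shorter 3'UTRs. Resting macrophages clear debris and microbes through scavenger and lectin receptors, make complement, handle lipid and iron, and hold inflammatory genes at a low level.

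The values were read coverage per base of each gene, so that levels of different genes can be compared per length. A gene whose 3'UTR is shortened can thus have a lower mean at the same number of transcripts, and this was not tested. Each sample was scaled to the same summed coverage. Before scaling, coverage summed to 15751200 and 15827600 in WT and to 16650100 and 17744500 in cKO, and the 10 most covered genes took 17.1% to 18.3% of it. The log2 fold change was the difference of the mean log2(coverage + 0.1) between cKO and WT, which understates the change of low genes. Calls needed more than a 1.5-fold change and a p under 0.05, thresholds taken from the study's description of its RNA-seq, which names no test beside them, and here the p is limma's without adjustment. The adjusted p given with a gene is limma's after Benjamini-Hochberg adjustment over all genes tested. A single gene compared between 2 and 2 samples could not pass an exact permutation test, whose smallest two-sided p is 0.333.

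Nudt21 itself lies at chromosome 8, 94015496 to 94037031 on the minus strand, of GRCm38. Its coverage was 157 and 160.1 in cKO against 751 and 668 in WT, so that both cKO samples lay far below both WT samples. It had a log2 fold change of -2.16 (standard error 0.11, adjusted p = 0.0389 from limma). The value covers the whole gene and not the floxed exons alone, so the remaining signal does not give the share of intact alleles. Of its partners, Cpsf6, the larger subunit that joins Nudt21 in CFIm, had a coverage of 2384 and 2302 in cKO against 842 and 832 in WT (log2 fold change 1.48, standard error 0.083, adjusted p = 0.0455 from limma). Cpsf7, which takes the same place in other CFIm complexes, had 724 and 822 in cKO against 623 and 611 in WT and was not called, at 0.32 on the log2 scale. The loss of one subunit thus came with a higher transcript level of one partner and a smaller difference in the other that did not pass the test.

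The label of macrophages was checked against 8 defining markers, and all 8 were well covered in all 4 samples, with a summed coverage of 122581 to 123556 in cKO and 126208 to 134514 in WT. Csf1r, the receptor for M-CSF, and Adgre1 (F4/80) were among the lower ones in cKO and are described with the identity genes. Cd68, a late endosomal protein, had 68760.5 and 68222 in cKO against 47648 and 44712 in WT and just missed the fold threshold at 0.57 on the log2 scale. Under other scalings it was called higher. It had 0.69 on the deposited scale, 0.60 with samples centred on their medians and 0.61 after quantile normalization. Lyz2, the gene that holds the Cre in both groups, had 1147 and 1278 in cKO against 622 and 943 in WT and was not called, at 0.66. Neutrophil markers summed to 29926 to 36801 in cKO and 28534 to 31190 in WT, mostly from S100a9 and S100a8, and 1 of 12 was called, a lower one. The markers of T and NK cells summed to at most 31.9 in any sample, with Cd3e, Cd8a and Gzmb listed at 0 throughout, and dendritic cell and mast cell markers to at most 79.0 and 49.9. Osteoclast markers summed to 2315 to 2607 in cKO and 1227 to 1609 in WT, with Ctsk and Mmp9 called higher and Calcr listed at 0 throughout. B cell markers summed to 840.7 to 902 in cKO and 576 to 609.9 in WT, and 1 was called in each direction. Xist was listed at 0 in all 4 samples and 4 Y-linked genes were covered in all. Among them Ddx3y, an RNA helicase, had 507 and 539.5 in cKO against 884 and 857 in WT and was called lower, while Uty, Kdm5d and Eif2s3y were not called. In cultures of this kind, fewer cells of a type and less RNA per cell cannot be told apart.

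Of 16256 genes tested, 1098 (6.75%) were called higher and 1213 (7.46%) lower in cKO, 14.2% in all. After adjustment 186 genes (1.14%) kept a p under 0.05 in limma, 120 of them higher and 66 lower, but without cKO sample 3 or without cKO sample 4 this number was 0, with 2243 and 2139 genes at an unadjusted p under 0.05. Over all genes the median was -0.022 on the log2 scale. On the deposited scale, without equal totals, that median was 0.10 and the split was 1461 higher against 912 lower, so directions near 0 rest on the scaling. Coverage did not overlap between the groups in 57.5% of the genes tested, which is a weak criterion with 2 samples against 2. Of the 137 called genes whose values are given here, 71 kept their call whichever 1 of the 4 samples was left out, 40 lost it without cKO sample 3, 42 without cKO sample 4, 28 without WT sample 1 and 33 without WT sample 2, and 0 changed direction. The median absolute difference on the log2 scale was 0.14 between the cKO samples, 0.22 between the WT samples and 0.31 between the groups.

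**Figure D1:**
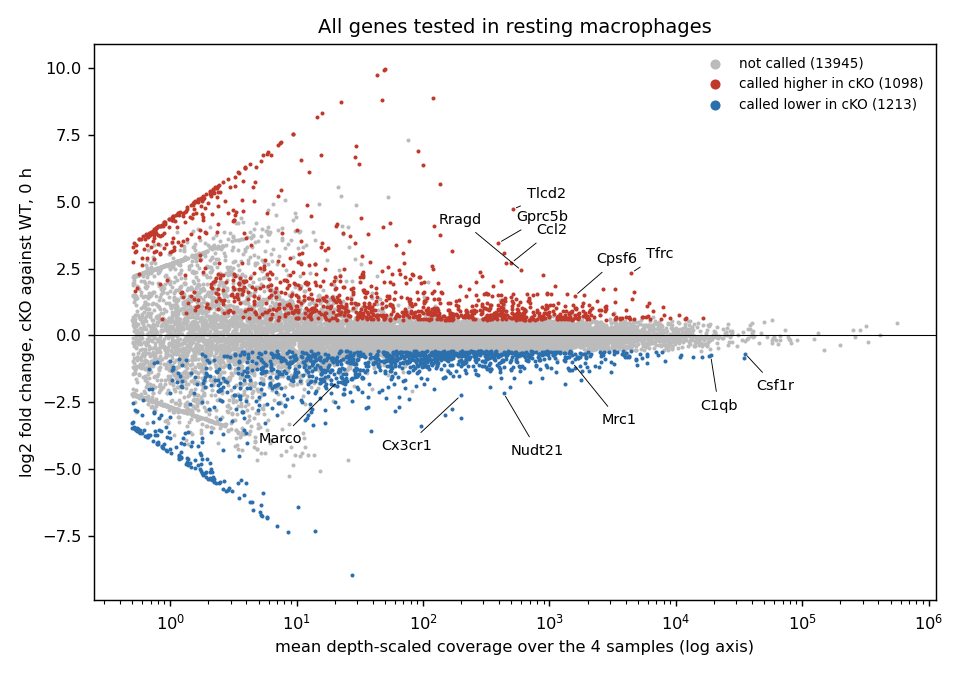
Log2 fold change between cKO and WT at 0 h (vertical axis) against mean depth-scaled coverage over the 4 samples (horizontal log axis) for the 16256 genes tested, with the 1098 genes called higher in red, the 1213 called lower in blue and the others in grey. The fans at low coverage are genes listed at 0 in the samples of one group, and Nudt21 lies at -2.16.

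Several genes that define macrophages were lower in cKO. Of 25 identity genes tested, 6 were called lower (24%, where 7.46% of all genes were) and 2 higher (8%, where 6.75% were), and the median log2 fold change was -0.27. Cx3cr1, the fractalkine receptor of tissue macrophages and monocytes, had 45.3 and 102 in cKO against 348 and 300.4 in WT (log2 fold change -2.24, standard error 0.49). Its 2 cKO samples differed by more than the 2 WT samples did, but neither came near WT. Fcgr1, the high-affinity IgG receptor CD64, had 1306 and 1244 in cKO against 2661 and 2498 in WT and fell by 1.02 on the log2 scale. Adgre1 had 13690.1 and 13287 in cKO against 21079 and 25487 in WT, and Csf1r had 26008 and 28154 in cKO against 40520.3 and 46122 in WT. The last pair fell by 0.78 and 0.68 on the log2 scale. The groups did not overlap in these genes, which holds for all 2311 called genes. Nr1h3, the oxysterol receptor LXRα, was also called lower, at -0.65. In the other direction Mpeg1, the pore-forming protein perforin-2, had 2606 and 2523 in cKO against 1049 and 1176 in WT and rose by 1.21. Mertk, Cd14 and Itgam, 3 further markers, were not called, with -0.17, -0.27 and -0.36. With 1 sample left out, 3 identity genes were called lower without cKO sample 4, 4 without cKO sample 3 or WT sample 2 and 5 without WT sample 1, and on the deposited scale there were 4. Fcgr1 and Mpeg1 kept their call whichever 1 sample was left out, and Cx3cr1, Adgre1, Csf1r and Nr1h3 did not.

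Several complement genes were lower in cKO. Of 17 genes tested, 7 were called lower (41.2%) and 0 higher, with a median of -0.75. The 3 chains of C1q, the first component of the classical pathway, are made in large amounts by macrophages. C1qa had 3026 and 2982 in cKO against 5913 and 4601 in WT, C1qb had 13408 and 14648 in cKO against 26111 and 21227 in WT, and C1qc had 3839 and 3917 in cKO against 8588 and 7363 in WT. The 3 chains fell by 0.80, 0.75 and 1.04 on the log2 scale. Cfb, a protease of the alternative pathway, had 15.5 and 9.71 in cKO against 46.8 and 48.3 in WT and fell by 1.94. C1ra, a protease of the C1 complex, and Vsig4, a receptor for complement fragments, were called lower too, at -1.45 and -0.98. Cfp (properdin), Itgam and Itgb2 (the chains of complement receptor 3) and C3ar1 were not called, with -0.35, -0.36, -0.19 and 0.33. Without either cKO sample, 4 members were called lower, without WT sample 1 there were 5, and without WT sample 2 there were 6. C1qc kept its call each time, whereas C1qa, C1qb and C1ra lost theirs without either cKO sample, and Cfb and Vsig4 without either WT sample.

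Receptors for uptake moved in both directions, with the falls in the majority. Of 30 phagocytic and scavenger receptors tested, 11 were called lower (36.7%) and 4 higher (13.3%), with a median of -0.29. Marco, a scavenger receptor for bacteria and particles, had 7.86 and 11.9 in cKO against 28.8 and 35.9 in WT. Mrc1, the mannose receptor, had 1104 and 908 in cKO against 1853 and 2192 in WT, and Itgb5, an integrin chain used in uptake of apoptotic cells, had 8177 and 8226 in cKO against 12962 and 14455 in WT. These fell by 1.72, 1.01 and 0.74 on the log2 scale. The members called higher were the C-type lectins Clec4n (dectin-2) and Clec4e (Mincle), the integrin chain Itgav and the lysosomal membrane protein Scarb2. Clec4n had 3330.3 and 4118 in cKO against 1815 and 1683 in WT, and Clec4e had 602 and 979 in cKO against 349 and 259 in WT. Itgav had 3261 and 3436 in cKO against 1453 and 1278 in WT and rose by 1.3, although its partner Itgb5 fell. Trem2, a lipid receptor of macrophages, had 25512 and 25595 in cKO against 27030.1 and 23587 in WT and was not called, at 0.017, nor was its adaptor Tyrobp, at 0.26. The number called lower was 5 without WT sample 2, 8 without WT sample 1 or cKO sample 4 and 10 without cKO sample 3, and on the deposited scale it was 6. Itgb5, Clec4n, Itgav and Scarb2 kept their call each time, whereas Marco lost it without either WT sample, Mrc1 without WT sample 2 and Clec4e without cKO sample 4 or either WT sample.

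**Figure D2:**
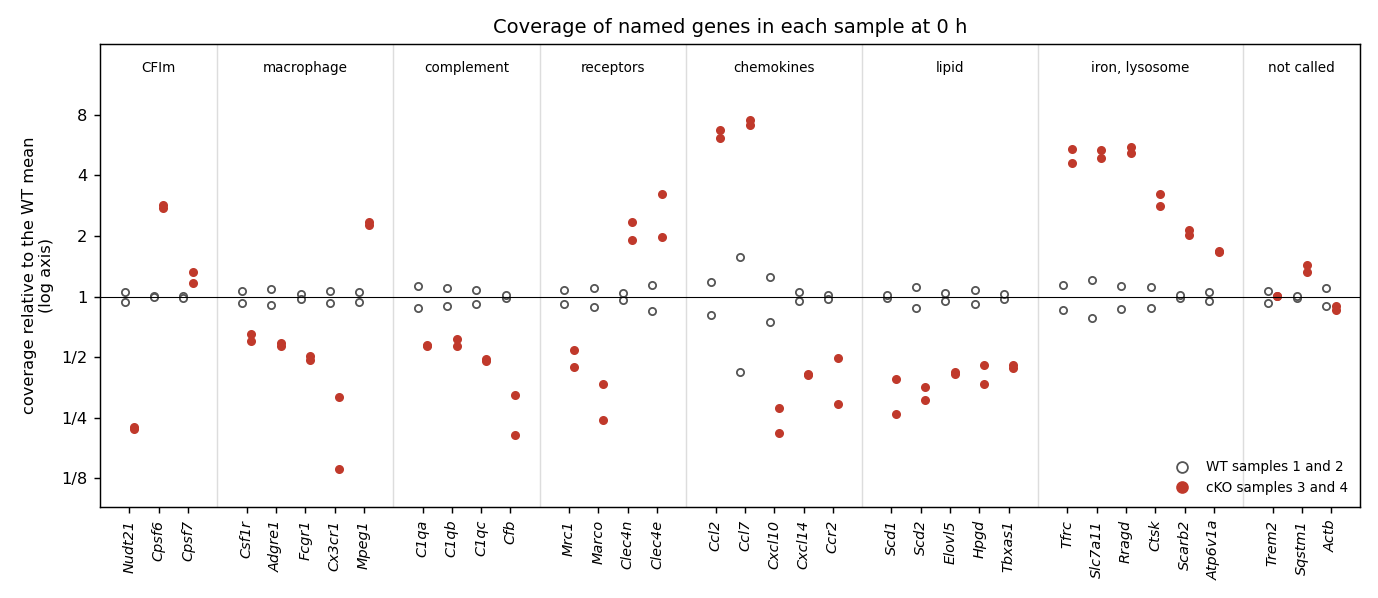
Coverage of named genes in each of the 4 samples at 0 h, divided by the mean of the 2 WT samples (vertical log axis), with WT as open and cKO as filled circles. C1q genes and the lipid genes lie below 1 in both cKO samples, Tfrc and Rragd lie above 1 in both, and Trem2 lies at 1.

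Among the chemokines, Ccl2 and Ccl7, ligands of the monocyte receptor Ccr2, were higher. Of 20 tested, 3 were called higher and 3 lower (15% each, where 6.75% and 7.46% of all genes were). The list's median was 0.29. Ccl2 had 823 and 905 in cKO against 159 and 109 in WT (log2 fold change 2.71, standard error 0.24), and Ccl7 had 309 and 291 in cKO against 17.4 and 64.4 in WT, with WT samples that differed widely from each other and a call that was lost without either cKO sample and with unmoderated variances. Ccl6 was the third, at 0.61. The members called lower belong to the CXC family. Cxcl14 had 844 and 834 in cKO against 2139 and 1929 in WT and fell by 1.28, and Cxcl10, a ligand of Cxcr3 induced by interferon, had 5.83 and 7.71 in cKO against 34.5 and 20.6 in WT and fell by 1.98, a call lost without cKO sample 3. Cxcl9, another Cxcr3 ligand, was listed at 0 in both cKO samples and at 0.931 and 7.25 in WT, a low level, and its call was lost with a pseudocount of 1, with unmoderated variances and without either cKO sample. Ccl9 and Cxcl16, which with Ccl6 had the highest coverage of the list, were not called, at 0.08 and -0.42. The number called higher was 2 without cKO sample 4 and 5 without WT sample 1, the number called lower was 1 without cKO sample 3 and 2 without cKO sample 4, and the median was 0.012 without cKO sample 4. Ccl2 and Cxcl14 kept their call each time.

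Of 20 chemokine and chemoattractant receptors, 5 were called lower (25%, where 7.46% of all genes were) and 2 higher (10%, where 6.75% were). The list's median was -0.21. Ccr2, which brings monocytes from the marrow, had 92.7 and 156 in cKO against 322 and 308 in WT and fell by 1.39, a call lost without either WT sample and with unmoderated variances. Of 6 monocyte markers, of which Ccr2 is one, 2 were called lower, with sums of 6370.3 to 7275 in cKO and 7114 to 8172 in WT, and their part was not tested. P2ry12 and Gpr34, purine and lysophospholipid receptors known from microglia, were lower too, at -1.05 and -0.68. Cxcr3 had 42.8 and 42.5 in cKO against 16.4 and 21.4 in WT and rose by 1.19. With 1 sample left out, 1 receptor was called lower without WT sample 1, 2 without WT sample 2 and on the deposited scale, and 3 without either cKO sample, and 0 were called higher without cKO sample 4. P2ry12, Gpr34 and Cxcr3 each lost their call without at least 1 sample too.

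Of 38 cytokines and their receptors, 3 were called higher and 4 lower (7.89% and 10.53%), near the 6.75% and 7.46% of all genes, with a median of -0.15. Il1a, an alarmin of the interleukin-1 family, had 171 and 124.9 in cKO against 51.7 and 67.7 in WT and rose by 1.31. Ifngr1, the ligand-binding chain of the IFNγ receptor, had 3218 and 3075 in cKO against 5607 and 5208 in WT and fell by 0.78. Il21r, Pdgfb and Il18bp, the last a soluble inhibitor of interleukin-18, were lower as well, at -1.49, -0.93 and -0.86. Igf1 and Tgfb1, growth factors of high coverage in these cells, were not called, at 0.067 and -0.069. Without either cKO sample, 1 was called higher, and without WT sample 1 there were 2 called lower. Ifngr1 kept its call each time, and Il1a, Il21r, Pdgfb and Il18bp did not.

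Genes that type I interferon induces were lower on balance in these unstimulated cells. Of 38 tested, 8 were called lower (21.1%) and 1 higher, with a median of -0.30. Ifi44 had the largest fall of the list with 2.02 and 2.44 in cKO against 12.7 and 15.01 in WT (log2 fold change -2.58, standard error 0.16, adjusted p = 0.0496 from limma), and Oas2 was the member called higher. Oas3, an antiviral nucleotide synthase, had 316 and 262 in cKO against 473 and 636 in WT, and Ifi204, a DNA sensor of the p200 family, had 1209 and 1014 in cKO against 1814 and 1716 in WT. They fell by 0.93 and 0.67. Bst2, the most covered member, was not called, at -0.13. The list had 4 falls without cKO sample 4, on the deposited scale and with unmoderated variances, 5 without cKO sample 3 and 6 without either WT sample. Ifi44 kept its call each time, and Oas3 and Ifi204 did not.

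Some genes of antigen presentation, innate sensing and cell death were called lower too. Of 19 genes of MHC class I presentation, 3 were called lower (15.8%, where 7.46% of all genes were) and 0 higher. These were H2-M3, which presents formylated peptides, the peptide transporter Tap1 and the immunoproteasome subunit Psmb9, at -1.16, -0.64 and -0.82. B2m, the shared light chain, was not called, at -0.31. Of 15 class II genes 2 were called lower (13.3%) and 1 higher. The riser was Cd80, a costimulatory ligand of T cells, with 375 and 373 in cKO against 213 and 201 in WT. The class II chains H2-Aa and H2-Eb1 and the invariant chain Cd74 were not called, at -0.086, -0.097 and -0.10. Of 43 genes of pattern recognition and NF-κB, 6 were called lower (13.95%) and 2 higher. Nfkbiz and Nfkbie, an atypical and a typical inhibitor of NF-κB, both had -0.87, and the sensor Tmem173 (STING) had -0.64. Tlr6 had 85.4 and 71.9 in cKO against 36.5 and 21.7 in WT and rose by 1.47, while its fellow receptor Tlr1 fell by 0.62. Of 35 inflammasome and cell death genes, 4 were called lower (11.4%) and 0 higher, namely Nlrp3, Casp4, Ripk3 and Xiap, between -0.68 and -0.62. Each of these 4 lost its call without at least 1 of the samples, 3 of them without cKO sample 3, and on the deposited scale 0 were called by limma and the list's median was 0.053 in place of -0.070. Without either cKO sample, 1 class I gene and 1 class II gene were called lower, Tap1 and Psmb9 losing their call both times. On the deposited scale the falls numbered 1 in class I, 0 in class II and 2 in pattern recognition. Cd80, H2-M3, Nfkbiz, Tmem173 and Tlr1 kept their call whichever sample was left out, and Tlr6 lost it without either cKO sample. On the deposited scale Tmem173 and Tlr1 lost theirs, at -0.52 and -0.50.

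**Figure D3:**
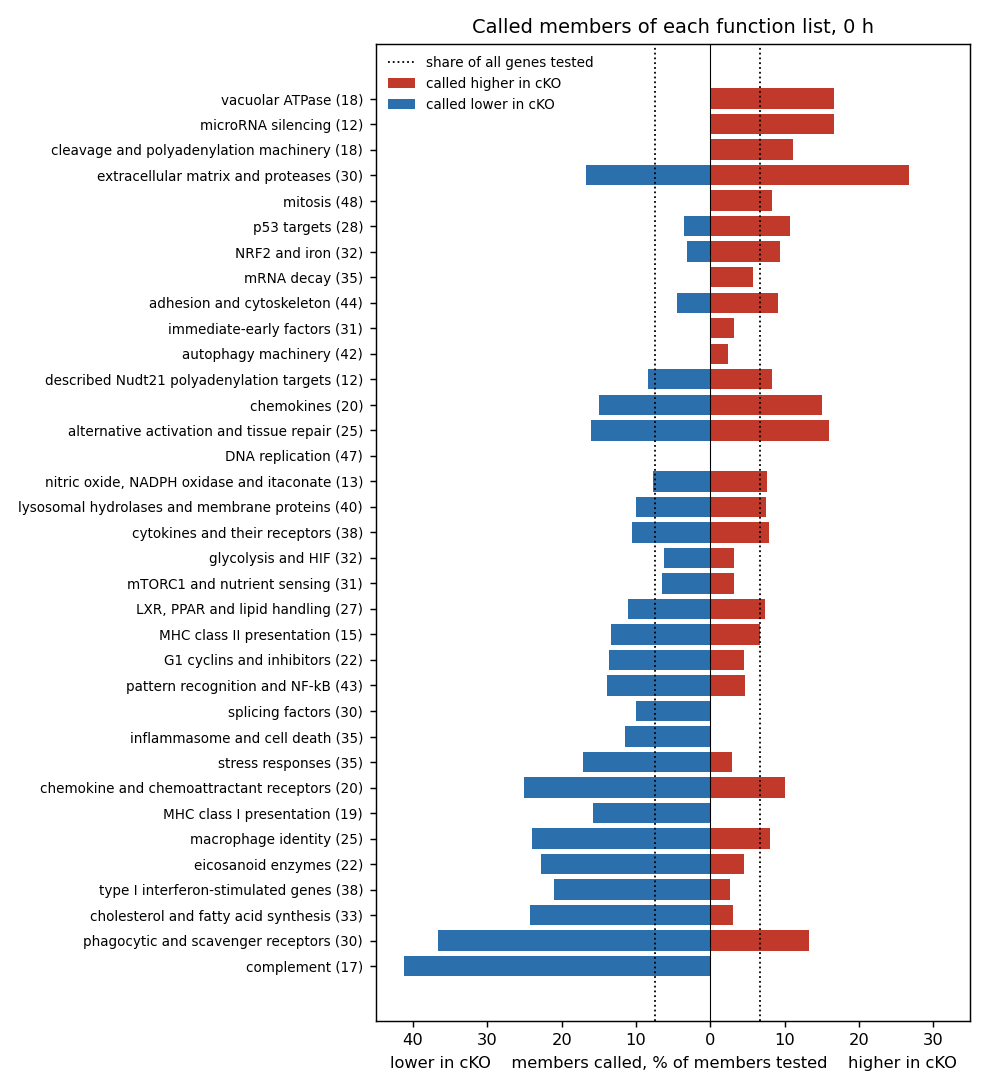
Members of each function list that were called higher (red, to the right) or lower (blue, to the left) in cKO at 0 h, in % of the members tested, whose number is in brackets. Dotted lines mark the share of all genes tested, 6.75% higher and 7.46% lower, and complement has 41.2% lower.

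Lipid metabolism differed in the enzymes that make and desaturate fatty acids. Of 33 genes of cholesterol and fatty acid synthesis, 8 were called lower (24.2%) and 1 higher, with a median of -0.36. Scd1 and Scd2 place the first double bond in stearic acid. Scd2, the more covered of the pair here, had 219.8 and 190.04 in cKO against 545 and 692 in WT, and Scd1 had 16.1 and 10.9 in cKO against 40.8 and 42.1 in WT. Elovl5 and Fads2, which lengthen and further desaturate polyunsaturated acids, followed. Elovl5 had 505 and 492 in cKO against 1144 and 1250.2 in WT and fell by 1.26, and Fads2 had 13.9 and 19.7 in cKO against 40.1 and 58.5 in WT and fell by 1.54. Srebf2 and Insig1, which regulate the pathway, were not called, at -0.29 and -0.076. The number called lower was 2 without WT sample 2, 4 without either cKO sample, on the deposited scale and with unmoderated variances, and 7 without WT sample 1. Scd2 and Elovl5 kept their call each time, and Scd1 and Fads2 did not.

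Of 27 genes of LXR, PPAR and lipid handling, 3 were called lower (11.1%, where 7.46% of all genes were) and 2 higher (7.41%, where 6.75% were). On the deposited scale 2 were called lower and 5 higher. Apoc1 and Nr1h3 lost their call without cKO sample 4. Pltp, the phospholipid transfer protein and an LXR target, had 11787 and 11500.5 in cKO against 21037 and 19526 in WT and fell by 0.80, as did Apoc1 at -1.02 and Nr1h3. Acadl, a dehydrogenase of fatty acid oxidation, rose by 0.60, and Hilpda, a lipid droplet protein, had 172 and 122 in cKO against 70.8 and 70.8 in WT and rose by 1.03. Apoe, Lpl and Cd36 were not called, at -0.37, 0.46 and -0.036. Of 22 eicosanoid genes, 5 were called lower (22.7%, 3 genes without WT sample 1) and 1 higher. Hpgd, which inactivates prostaglandins, had 943 and 755 in cKO against 2224 and 1896 in WT. Tbxas1, the thromboxane synthase, had 1059 and 1096 in cKO against 2340.2 and 2463 in WT, and Ptgs1, the constitutive cyclooxygenase, had 278 and 321 in cKO against 528 and 461 in WT. They fell by 1.28, 1.16 and 0.72, and the prostaglandin E2 receptor Ptger4 fell by 1.12. Synthesis, inactivation and reception of prostanoids were thus each represented among the falls. Pltp, Hpgd, Tbxas1 and Ptger4 kept their call each time, and Acadl, Hilpda and Ptgs1 did not.

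Tfrc and Slc7a11, which bring iron and cystine into the cell, rose, while 28 of 32 genes of the NRF2 response and iron were not called. Tfrc, the transferrin receptor through which cells take up iron, had 7978 and 6837 in cKO against 1265 and 1683 in WT (log2 fold change 2.34, standard error 0.21, adjusted p = 0.071 from limma). Slc7a11, the cystine and glutamate exchanger that feeds glutathione synthesis, had 449.8 and 497 in cKO against 72.95 and 112 in WT and rose by 2.38. Gstm1, a glutathione transferase, had 8710.1 and 8409 in cKO against 4713 and 4369 in WT and rose by 0.92. These were the only members of the list called higher (9.38%, where 6.75% of all genes were), and their number stayed 3 under every alternative for this list. Hfe, which binds the transferrin receptor and limits iron uptake, had 1142 and 1262 in cKO against 2139.5 and 2039 in WT and fell by 0.80. The ferritin chains Fth1 and Ftl1 and the peroxiredoxin Prdx1 had the highest coverage of the list and were not called, at 0.032, 0.46 and -0.056. The list's median was -0.046, and it was 0.077 on the deposited scale, so the list as a whole had no fixed direction. Tfrc, Slc7a11, Gstm1 and Hfe kept their call each time.

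Lysosomal hydrolases and membrane proteins were called at shares near those of all genes. Of 40 tested, 3 were called higher (7.5%, where 6.75% of all genes were) and 4 lower (10%, where 7.46% were), 2 lower without cKO sample 3, with a median of -0.012 that was 0.11 on the deposited scale. Ctsk, a collagen-cutting cathepsin best known from osteoclasts, had 1544 and 1333 in cKO against 417 and 533 in WT and rose by 1.61. Ctsk is itself the most covered of the 7 osteoclast markers. Their sums, 2315 to 2607 in cKO and 1227 to 1609 in WT, thus move with it. Of 5 tested, Ctsk and Mmp9 were called higher, and Acp5, Dcstamp and Ocstamp were not. Acp5 had 637 and 558 in cKO against 523 and 666 in WT, and Dcstamp 196 and 228 against 205 and 296. The part of osteoclasts in this result was not tested. Scarb2, which carries glucocerebrosidase to the lysosome, had 10426 and 10984 in cKO against 5064 and 5206 in WT, and Gla, an α-galactosidase, had 5341 and 5223 in cKO against 2509.8 and 2969.9 in WT. Acp2, an acid phosphatase, was lower with 1717 and 1694 in cKO against 3075 and 3804 in WT, as was Naglu, a heparan sulfate hydrolase, with 1181 and 1065 in cKO against 2007 and 2078 in WT. The cathepsins Ctsb and Ctsd and the saposin precursor Psap, among the most covered genes of these cells, were not called, at 0.37, -0.26 and 0.22. Of 18 subunits of the vacuolar ATPase, the proton pump of lysosomes, 3 were called higher (16.7%) and 0 lower, with a median of 0.21. They were Atp6v1a, Tcirg1 and Atp6v0b, at 0.75, 0.64 and 0.62. There were 2 without either cKO sample or without WT sample 2, where Atp6v0b lost its call. Atp6v0d2, another pump subunit of osteoclasts, was not called, at 0.072. Acp2 lost its call without either cKO sample, and Ctsk, Scarb2, Gla and Naglu kept theirs each time.

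On the surface of the lysosome, Rragd, a Rag GTPase that tethers mTORC1, had 976 and 1049 in cKO against 165 and 213 in WT (log2 fold change 2.43, standard error 0.18, adjusted p = 0.0576 from limma). Among 31 genes of mTORC1 and nutrient sensing, 2 were called lower (6.45%, where 7.46% of all genes were). Rragd was the only 1 called higher (3.23%, where 6.75% were). Its relative Rragc had 0.48 and was not called, and Rragb, of low coverage, had 8.28 and 4.87 in cKO against 19.1 and 17.5 in WT and was called lower, a call lost without either WT sample, with unmoderated variances and with all 8 samples. Of 42 genes of the autophagy machinery, 1 was called higher by limma (2.38%, where 6.75% of all genes were). By the same test 0 were called lower, where 7.46% of all genes were, and 10 had an unadjusted p under 0.05. Over the 42 genes, log2 fold changes ran from -0.46 to 0.70, 21 above and 21 below 0, with a median of 0.0013. The called member was Atg12, the ubiquitin-like protein that is joined to Atg5, with 1658 and 1655 in cKO against 1069 and 969 in WT. Sqstm1, the cargo receptor p62, had 11828 and 12860 in cKO against 8862 and 9076 in WT and missed the fold threshold at 0.46. On the deposited scale the median was 0.12 and 4 were called higher, and without either WT sample there were 2. Of the mTORC1 genes, 5 were called higher on that scale and the median was 0.059 in place of -0.063.

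Matrix and protease genes moved in both directions. Of 30 tested, 8 were called higher (26.7%) and 5 lower (16.7%). Of the 8, Mmp9 is also an osteoclast marker and Col3a1, a fibrillar collagen, a stromal one. The osteoclast sums, given above, include Mmp9 itself and Ctsk, their most covered member. The 10 stromal markers summed to 366 to 402 in cKO and 207 to 389.8 in WT, which overlap, with 1 of 8 tested called higher. The part of either list was not tested. Mmp9 (gelatinase B) had 205 and 174 in cKO against 61.5 and 88.5 in WT and Vcan, the proteoglycan versican, had 30.6 and 29.3 in cKO against 7.73 and 7.83 in WT. They rose by 1.35 and 1.93 on the log2 scale. Mmp14, Mmp13 and Mmp12 went the other way. Mmp12, the macrophage elastase and by far the most covered of the 3, had 28512 and 20680.4 in cKO against 39122 and 49241 in WT, and Mmp14, which is anchored in the membrane, had 898 and 860.01 in cKO against 1947 and 2337 in WT. They fell by 0.85 and 1.28, and Fn1 (fibronectin) fell by 1.11. With any 1 sample left out 3 were called lower, and 5 were called higher without cKO sample 3. The median was 0.25, but -0.0038 without WT sample 1 and 0.49 without WT sample 2. Vcan and Mmp14 kept their call each time, and Mmp9, Mmp12 and Fn1 did not.

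Genes of alternative activation and repair were called in both directions, 4 of 25 higher and 4 lower (16% each, where 6.75% and 7.46% of all genes were), a split that was 6 higher and 3 lower on the deposited scale. Mgl2, a galactose lectin, was higher with 14.6 and 14.3 in cKO against 6.96 and 4.86 in WT, and Mrc1 and Fn1 were lower. Gpnmb, Spp1 and Fabp5, at high coverage, were not called, at 0.22, -0.27 and 0.50. Among 44 genes of adhesion and the cytoskeleton, 4 were called higher (9.09%) and 2 lower (4.55%), near those shares. Vcl (vinculin) and Tmsb10, an actin-binding thymosin, had 0.69 and 0.67, and the integrin chain Itgal had -0.69. Actb was not called, at -0.18. On the deposited scale 1 adhesion gene was called lower, as without cKO sample 4. Tmsb10 kept its call each time, and Mgl2, Vcl and Itgal did not.

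Genes of stress responses were lower on balance, with a median of -0.29. Of 35 tested, 6 were called lower (17.1%, where 7.46% of all genes were) and 1 higher (2.86%, where 6.75% were). Sdf2l1, a cofactor of folding in the endoplasmic reticulum, had 994 and 833 in cKO against 1768 and 1723 in WT, and Pdia4, a disulfide isomerase there, had 874 and 922 in cKO against 1571 and 1852 in WT. They fell by 0.94 and 0.93, and Hspa5, the main chaperone there, had -0.37 and was not called. Ppp1r15a, which restores translation after stress, was the riser at 0.77. The falls numbered 3 without cKO sample 3 and on the deposited scale. Of 32 genes of glycolysis and hypoxia, 2 were called lower (6.25%) and 1 higher (3.1%), both below the shares of all genes. Slc2a1, the glucose transporter GLUT1, had 496 and 510.4 in cKO against 841 and 867 in WT and Hk2, a hexokinase, had 446 and 427 in cKO against 646 and 778 in WT, and both were called lower, at -0.76 and -0.70. Without either cKO sample, 1 was called lower and 0 higher. The glycolytic enzymes Pkm, Aldoa and Eno1 were not called, at -0.12, -0.036 and 0.07. Sdf2l1, Pdia4 and Slc2a1 kept their call each time, and Ppp1r15a and Hk2 did not.

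The cell cycle differed in few genes. Of 22 G1 cyclins and inhibitors, 3 were called lower (13.6%, where 7.46% of all genes were) and 1 higher (4.55%, where 6.75% were). Cdkn1c, the CDK inhibitor p57, had 2095 and 1397 in cKO against 521 and 429 in WT and rose by 1.85, while Ccnd1, cyclin D1, had 335 and 299.6 in cKO against 559.6 and 609 in WT and Btg1, an antiproliferative factor, had 3973 and 3756 in cKO against 7114 and 6839.7 in WT. The last 2 fell by 0.88 and 0.85. Of 48 mitotic genes 4 were called higher (8.33%, near the 6.75% of all genes) and 0 lower, and the 4 were Plk4, Ccnb2, Kif23 and Mki67, between 0.62 and 0.85. Without cKO sample 3 or WT sample 1 there were 2 called higher, and without cKO sample 4 there was 1. Of 47 genes of DNA replication, 0 were called by limma, with 7 at an unadjusted p under 0.05, and Pcna had -0.55. Ccnd1, Btg1 and Plk4 kept their call each time, and Cdkn1c lost it without WT sample 2.

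RNA handling genes were mostly uncalled outside CFIm. Of 18 other cleavage and polyadenylation genes, 2 were called higher (11.1%, where 6.75% of all genes were) and 0 lower (where 7.46% were). These were Papolg, a poly(A) polymerase, with 295 and 331 in cKO against 187 and 169 in WT, and Pabpn1, the nuclear poly(A)-binding protein, with 1671 and 1918 in cKO against 1237 and 969.8 in WT. Papola, the main poly(A) polymerase, was at 0.0092. Of 12 genes of microRNA silencing, Ago2 and Tnrc6b, 2 core members of the silencing complex, were called higher (16.7%). Ago2 had 1289 and 1262 in cKO against 549 and 707 in WT and rose by 1.03, and Tnrc6b had 433 and 464 in cKO against 173 and 220.4 in WT and rose by 1.2, while their relatives Ago1 and Tnrc6a were at -0.10 and -0.095. Of 35 mRNA decay genes, the exosome nuclease Dis3 and the deadenylase subunit Cnot8 were called higher, at 0.81 and 0.62. That is 5.71%, below the 6.75% of all genes. Of 30 splicing factors, Srsf1, Hnrnpa0 and Ptbp1 were called lower, at -0.73, -0.79 and -0.71 (10%, where 7.46% of all genes were). These counts were lower with 1 sample left out. For cleavage and polyadenylation 1 was called higher without either cKO sample or without WT sample 2, for microRNA silencing 1 without either cKO sample, and for mRNA decay 1 without cKO sample 4 or WT sample 2. Of the splicing factors 1 was called lower without cKO sample 4 and 2 without cKO sample 3 or WT sample 1, but 5 without WT sample 2. Of 12 genes described elsewhere as polyadenylation targets of Nudt21, 1 was called higher and 1 lower, namely Gsk3b at 0.81 and Ccnd1. These are 8.33% each, near the 6.75% and 7.46% of all genes. Gsk3b lost its call without either cKO sample and with unmoderated variances, and on the deposited scale 3 were called higher. Papolg, Tnrc6b, Dis3 and Ptbp1 kept their call each time.

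Large housekeeping families were called less often than all genes, of which 6.75% were called higher and 7.46% lower. Of 85 cytosolic ribosomal proteins 0 were called by limma, with 5 at an unadjusted p under 0.05. Of 78 mitochondrial ribosomal proteins 1 was higher and 1 lower, of 82 oxidative phosphorylation subunits 1 was lower, and of 38 proteasome subunits 1 was higher and 2 lower. Of the 13 mitochondrially encoded genes 0 were called by limma, with 1 at an unadjusted p under 0.05. Their medians lay between -0.13 and 0.051.

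Among well covered genes, many of the largest changes were in genes outside the function lists. Those named here were picked after their values were seen, from the larger changes with a coverage of at least 500 in the higher group, and are not all of them. Tlcd2, a membrane lipid regulator, had 965 and 1019 in cKO against 36.6 and 38.3 in WT (log2 fold change 4.72, standard error 0.09, adjusted p = 0.011 from limma). Gprc5b, an orphan receptor, had 796 and 650.3 in cKO against 68.5 and 62.5 in WT, and Evi2b, a leukocyte membrane protein, had 909.5 and 647 in cKO against 69.1 and 119.95 in WT. All 3 were more than 8-fold higher by the fitted change. Maoa (monoamine oxidase A), Lrp12, Frrs1 (a ferric reductase-like protein) and Alcam (an adhesion molecule, CD166) were at 2.04, 1.76, 1.74 and 1.63. Among the falls, Vcam1, the vascular cell adhesion molecule, had 188 and 105 in cKO against 478 and 589 in WT. Ap1s2, an adaptor subunit of vesicle transport, had 665 and 510.4 in cKO against 2027 and 2123 in WT, and Pde1b, a cyclic nucleotide phosphodiesterase, had 336 and 305 in cKO against 1237 and 939.7 in WT. They fell by 1.92, 1.83 and 1.75, and Cd72, a C-type lectin-like receptor, Hnrnpr, a splicing regulator, and Folr2, a folate receptor of tissue macrophages, fell by 1.66, 1.6 and 1.37. Vcam1 and Folr2 lost their call without either WT sample, and the others named here kept theirs each time.

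By the fold change alone, the 12 largest rises and 12 largest falls with a coverage of at least 10 in the higher group were mostly genes listed at 0 in the other group. For such genes no fold is given, since an exact 0 in these files can also be a failed estimate, which was not tested. In all, 9 genes with a mean of at least 50 in 1 group had a sample at exactly 0. These include such genes, Stpg4 and Capn11 among them, so the count does not tell failed estimates from absent transcripts. Stpg4 was listed at 0 in both WT samples and at 100.05 and 99.2 in cKO. Tmem236 was listed at 0 in WT and at 15.8 and 21.6 in cKO, and ETV3L at 0 and at 15.96 and 21.1. Trav15d-3, a variable segment of the T cell receptor α locus, had 91.6 and 81.9 in cKO against 0 and 0 in WT, and Trav7n-4, another, had 219.95 and 257 in cKO against 0 and 2.38 in WT. The T cell markers Cd3e and Cd8a were listed at 0 in all 4 samples. Segments at or near 0 in WT were tested only through their level in cKO. The other 7 rises carried Gm symbols. On the side of the falls, Capn11, a calpain, was listed at 0 in both cKO samples and at 77.4 and 31.8 in WT. Pspn, a neurotrophic factor, was listed at 0 in cKO and at 14.1 and 13.8 in WT, Ifit1bl1 at 0 and at 6.94 and 13.7, Hoxc9 at 0 and at 17.1 and 3.796, and Fgf1 at 0 and at 19.9 and 1.65. The other 7 falls had Gm or Rik symbols. The library kit does not mark strand, so reads of overlapping genes on opposite strands cannot be told apart. Trav7n-4 and Fgf1 lost their call without either cKO sample.

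Some of these genes lie just downstream of an expressed gene on the same strand, a feature examined after the values were seen. Of 33 protein-coding genes called higher with a log2 fold change above 3 and a coverage of at least 10, 16 (48.5%) had the end of a gene with a WT coverage of at least 50 within 20 kb upstream, as had 5 of 11 (45.5%) called lower by as much and 24.3% of the 11416 protein-coding genes of that coverage. Over all calls the shares lay near that of all genes, at 22.2% of genes called higher and 25.1% of genes called lower beside 22.9% of the 16006 located genes. Stpg4 begins 5.67 kb after the end of Calm2, a calmodulin gene with a mean WT coverage of 7533. Ccdc141, with 197 and 195 in cKO against 3.81 and 1.29 in WT, begins 9.70 kb after Sestd1. Mss51, with 208 and 251 in cKO against 16.2 and 10.96 in WT, begins 2.46 kb after Ppp3cb, a calcineurin subunit. Among the falls, Capn11 begins 0.846 kb after Tmem63b, and Psd, with 19.5 and 14.6 in cKO against 169 and 185 in WT, begins 2.66 kb after Cuedc2. The upstream neighbours themselves were not called, at -0.084, 0.081, 0.0034, 0.012 and 0.20. Whether reads cross from one gene to the next was not tested, since the files hold 1 value per gene.

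The reference 3'UTR was compared between called and other genes, because CFIm acts on sites within it. A 3'UTR of a RefSeq-matched transcript was available for 11173 genes with a coverage of at least 10, and UGUA was counted on the transcript strand, overlaps included. The bins were set after the values were seen. Genes called higher had a median 3'UTR of 1633 nt with 9 UGUA, genes called lower 872.5 nt with 4, and genes not called 1045 nt with 5. The quartiles ran from 544.5 to 2974.5 nt for genes called higher and from 396.75 to 1813.75 nt for genes called lower, so the distributions overlap widely. Of genes with a 3'UTR above 4000 nt, 10.98% were called higher and 4.91% lower, and of genes above 600 and up to 1000 nt 3.05% and 8.57%. The shares did not follow length throughout, since among genes of at most 300 nt, the shortest, 5.003% were called higher and 7.504% lower, near the 5.26% and 6.84% of all these genes. Of genes with 13 or more UGUA, 8.72% were called higher and 5.18% lower, and of genes with none 4.35% and 8.94%. Length and the number of UGUA go together, and the median density of UGUA was 5.76 per kb in genes called higher, 4.55 in genes called lower and 5.17 in the others. The files hold no site usage, so whether these 3'UTRs were shortened, and whether that moved their coverage, was not tested here.

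**Figure D4:**
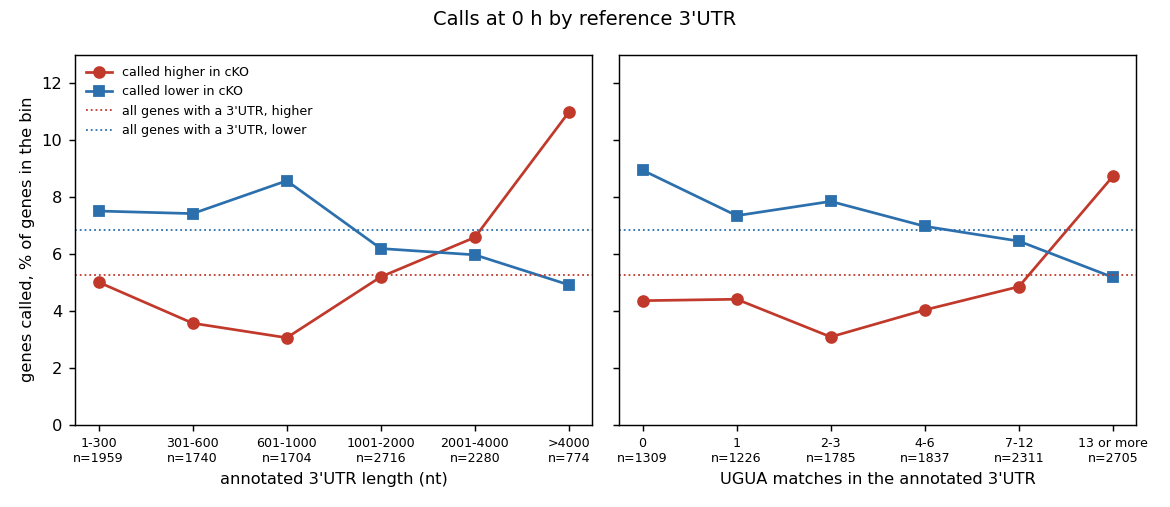
Share of genes called higher (red circles) and lower (blue squares) in cKO at 0 h, in % of the genes in each bin of annotated 3'UTR length in nt (left) and of the number of UGUA matches in it (right), with the number of genes under each bin. Dotted lines give 5.26% higher and 6.84% lower over all 11173 genes, and the share called higher is 10.98% above 4000 nt.

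The UGUA nearest to 50 bases before the annotated 3' end is shown for 4 genes, 3 that rose and 1 that fell, to let the element be seen in its reference surroundings. Sequences are 24 bases on the transcript strand from GENCODE M21 on GRCm38, written as DNA with the element in capitals (TGTA for UGUA). A match is a description and not a site of binding, and 83.2% of all 19252 reference 3'UTRs hold at least 1.
Cpsf6, chr10:117344686-117344709, minus strand: gtatttatctTGTAttgaaaataa
Tfrc, chr16:32632730-32632753, plus strand: acagctggtaTGTAacaatgtgaa
Slc7a11, chr3:50365032-50365055, minus strand: tgtctgtgttTGTAtatttttact
Cx3cr1, chr9:120048713-120048736, minus strand: ctatcccactTGTAattctgtcaa
The 3'UTR is 4798 nt with 47 UGUA in Cpsf6, 2458 nt with 17 in Tfrc and 7364 nt with 46 in Slc7a11, which rose. In Cx3cr1, which fell, it is 2587 nt with 7.

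The difference between genotypes at rest was set beside that after stimulation, in other samples of the same groups. Of 2311 genes called at 0 h, 1921 were also tested at 4 h, and 641 of these were called in the same direction and 66 in the opposite one. Of the 894 called higher at rest 40.9% were called higher at 4 h, where 12.9% of the 14947 genes tested at 4 h were, and of the 1027 called lower 26.8% were called lower, where 6.79% were. The difference itself was tested as an interaction of genotype and time over all 8 samples, and 408 of 16272 genes (2.51%) had an adjusted p under 0.05 from limma, or 240 without cKO sample 4 and 246 without cKO sample 3. With the replicate number as a block 0 genes passed in limma, and 2790 had an unadjusted p under 0.05. Samples carry the same numbers at both times, and whether these stand for the same mice was not settled. Nudt21, Cpsf6, Tfrc, Gprc5b, Elovl5 and C1qb were called in the same direction at both times, with -2.34, 1.73, 2.48, 3.51, -1.24 and -0.77 on the log2 scale at 4 h, and their interaction did not pass. Cfb fell at rest and was called higher at 4 h at 1.08. Alcam and Itgav rose at rest and were at 0.27 and 0.22 at 4 h, and these 3 passed the interaction test. Ctsk and Tlcd2, which also passed, rose further, to 3.4 and 6.18. Alcam, Itgav, Ctsk and Tlcd2 did not pass whichever 1 of the 4 samples at 0 h was left out, and Cfb did not without WT sample 1 or WT sample 2 of that time.

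**Figure D5:**
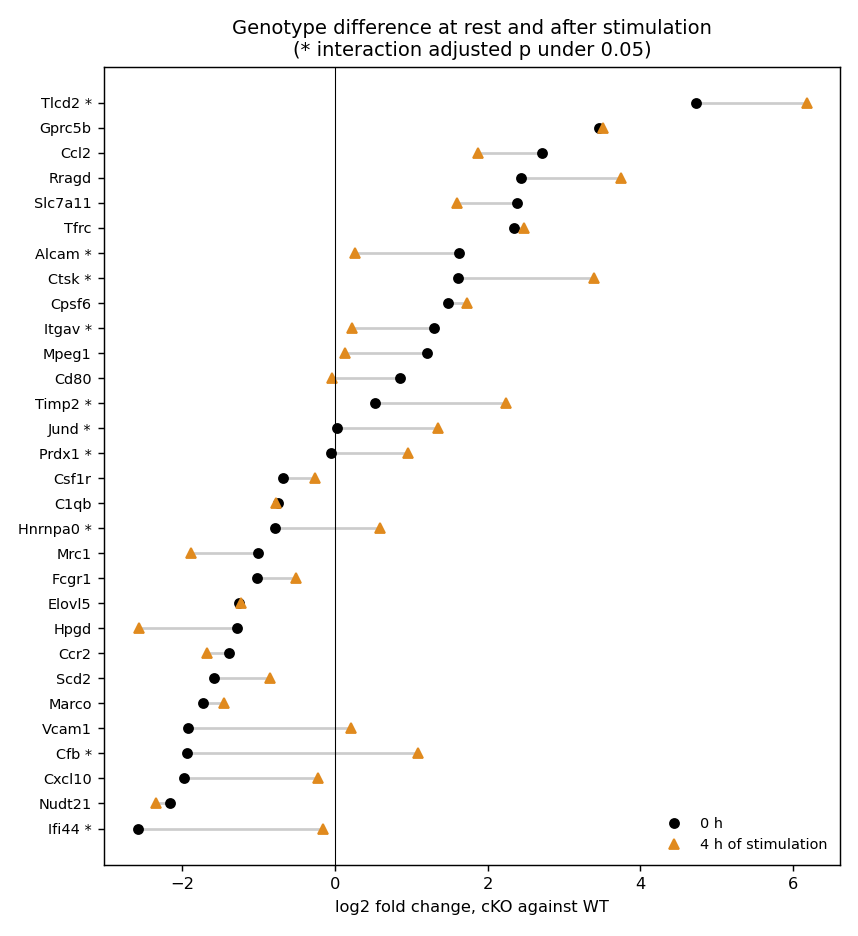
Log2 fold change between cKO and WT (horizontal axis) at 0 h (black circles) and at 4 h of LPS after overnight IFNγ (orange triangles) for 30 named genes, ordered by the value at 0 h. Asterisks mark an interaction adjusted p under 0.05 from limma, as for Cfb, which lies at -1.94 at 0 h and 1.08 at 4 h.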

How the data were processed

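RNA-seq of 8 BMDM samples was deposited as 1 table for each time. The authors aligned paired-end reads with HISAT2 2.2.1 and quantified RefSeq genes with StringTie 2.1.7 on mm10, per the labels and the study's methods. The deposited values are a coverage signal, the mean number of reads over each base of a gene, without scaling for depth. The unit is not named in the tables and was read from the values. The authors' columns of fold change, p-value, false discovery rate and class of change were not used. Samples were grouped by title. The labels do not say whether samples were separate cultures, so p-values measure the spread between these samples.

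The 4 samples at 0 h were scaled to their mean summed coverage, genes with a mean of at least 0.5 were kept, and log2(coverage + 0.1) was fitted in limma 3.58.1 (R 4.3.3), checked on simulated data first. The interaction was fitted over all 8 samples. The alternatives were other scalings, pseudocounts, filters and variance models, all 8 samples and leaving out each sample. Up to 6 called and 3 highly covered members of each list could be named, with the 12 largest changes each way. Members and lists were chosen with earlier results of these data known. Symplk, Clec7a, Mx1, Mx2, Cxcl11, Cxcl13, Ptprv, Mcpt4 and Tpsb2 were not analysed here. Positions and 3'UTRs came from GENCODE M21 on GRCm38. Some genes are not reported here.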

Additional observations from a re-analysis of the deposited data

Results flagged for a closer look

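The difference between genotypes at rest and that at 4 h of LPS after overnight IFNγ were not alike for 15 of the genes given above. The test was limma's interaction over all 8 samples with Benjamini-Hochberg adjustment. Each value is the log2 difference between cKO and WT at 0 h minus that at 4 h, so a negative value means that it was lower at rest.

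Among the macrophage and immune genes, Cfb had -3.03 (adjusted p = 0.0216 from limma) and turned from lower at rest to higher at 4 h. Ifi44 had -2.42 (adjusted p = 0.00898 from limma). Itgav had 1.07 and Cxcr3 had 1.67, and both had been called higher at rest. Ctsk had -1.79, being higher at rest and further up at 4 h.

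Among the other genes, Tlcd2 had -1.46 and Alcam had 1.36. Prdx1, a peroxiredoxin that was near 0 at rest, had -1.02, and the splicing factor Hnrnpa0 had -1.38. Psd, called lower at rest, had -2.85. Of genes listed at 0 in a group at rest, Stpg4 had 4.18, Trav15d-3 9.76, Capn11 -4.69, Pspn -7.13 and Ifit1bl1 -7.95. These last values depend on the pseudocount and are no measure of a fold, and Trav15d-3 and Pspn were below the coverage minimum at 4 h, so that theirs repeat the values at rest.

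Most of these calls were lost with fewer samples. Itgav, Cxcr3, Prdx1, Ctsk, Tlcd2 and Alcam did not pass whichever 1 of the 4 samples at 0 h was left out, Cfb did not without either WT sample (adjusted p = 0.0688 and 0.0712 from limma), and Hnrnpa0 and Capn11 did not without either cKO sample. The other 6 passed each time. With the replicate block none of the 15 passed, with adjusted p from 0.0537 to 0.209 in limma. With samples centred on their medians, Prdx1, Ctsk, Hnrnpa0 and Capn11 did not pass, nor did Capn11 with an intensity trend.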

How the results depend on the processing

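Called genes numbered 2067 to 2463 with 1 sample left out, 883 to 1308 of them higher and 1127 to 1206 lower, and 1618 to 2440 under the other alternatives. On the deposited scale there were 1461 higher and 912 lower, with the median of all genes at 0.10. The number with an adjusted p under 0.05 moved most. It was 186, and 56 with a pseudocount of 1, 598 with a mean coverage of at least 5, 1951 with an intensity trend in limma, 24 with unmoderated variances and 808 with all 8 samples in the fit. With 1 sample left out it ran from 0 to 273, 0 without either cKO sample, and a group of 1 sample is then assumed to vary like the other group. What sets these numbers apart was not tested.

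Deviations of same-numbered samples at 0 h and 4 h correlated at 0.019 in WT and 0.024 in cKO over 16272 genes. Each rests on 1 difference between 2 samples at each time, so it cannot decide whether same-numbered samples share mice. With the replicate block 0 genes passed the interaction in limma and 2790 had an unadjusted p under 0.05, where 408 and 3283 did without the block. The number was 1021 with an intensity trend, and 240 to 314 with 1 sample at 0 h left out (240 without cKO sample 4, 246 without cKO sample 3). At 0 h alone no paired analysis was possible because the groups share no replicate number.

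No called gene given above changed direction under any alternative run. Genes that were not called and lay near 0 did, on the deposited scale Tgfb1 at 0.053, H2-Aa at 0.037, H2-Eb1 at 0.025, Cd74 at 0.023, Insig1 at 0.046, Cd36 at 0.086, Prdx1 at 0.067, Pkm at 0.0038, Aldoa at 0.086, Ago1 at 0.023, Tnrc6a at 0.028 and Calm2 at 0.038, and after quantile normalization Cd36 at 0.022, Actb at 0.070 and Aldoa at 0.025. With 1 sample left out, the values that crossed 0 ran, for Igf1 from -0.018 to 0.15, H2-Aa from -0.31 to 0.13, H2-Eb1 from -0.34 to 0.15, Cd74 from -0.28 to 0.082, Atp6v0d2 from -0.14 to 0.29, Aldoa from -0.11 to 0.036, Ppp3cb from -0.065 to 0.072, Ccl9 from -0.034 to 0.19, Cd36 from -0.20 to 0.12, Prdx1 from -0.12 to 0.0076, Tmem63b from -0.039 to 0.063, Bst2 from -0.35 to 0.091, Eno1 from -0.0057 to 0.15, Calm2 from -0.17 to 0.0043, Trem2 from -0.081 to 0.12 and Ago1 from -0.24 to 0.044. With 2 samples a group, depth is high but the spread rests on 1 difference in each group.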
